A study of Vitis vinifera and Vitis x champinii x Vitis riparia and Vitis cinerea var. helleri x Vitis rupestris with 22 samples.

Results

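Abscisic acid (ABA) is the plant hormone of drought and salt stress. In its core pathway, as worked out in Arabidopsis, soluble receptors of the PYR/PYL/RCAR family bind ABA and then inhibit protein phosphatases 2C, which frees SnRK2 protein kinases to phosphorylate transcription factors and ion channels. SnRK2.6, also called OST1, activates the anion channel SLAC1 in Arabidopsis guard cells.

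The values below are for 3 grapevine genes of these receptor and kinase families out of 26241 genes on the array. They are the receptor PYL1 (VIT_02s0012g01270, GSVIVT01013161001), the kinase SnRK2.7 (VIT_07s0191g00070, GSVIVT01003419001) and the kinase SnRK2.6 (VIT_00s0710g00020, GSVIVT01002389001). The names are those of the functional annotation that the study gives. The locus names place PYL1 on chromosome 2 and SnRK2.7 on chromosome 7 of the 12x grapevine assembly, whereas SnRK2.6 lies on a scaffold with no chromosome. Each gene has 2 probes with 1 spot each, which makes 6 of the 52478 probes. The study's list of differences between rootstocks holds 1 probe of each gene, here called probe A (CUST_15333, CUST_21950 and CUST_41758 for PYL1, SnRK2.7 and SnRK2.6). The other is called probe B (CUST_15332, CUST_21951 and CUST_41757). Probe sequences were not used here.

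RNA came from whole roots of rooted leaves, that is single leaves that had formed roots, and each array held the pooled roots of 4 of them. Cabernet Sauvignon (CS) is a V. vinifera scion variety, K51-40 is a V. champinii × V. riparia rootstock known as a Cl- accumulator, and 140 Ruggeri (140R) is a V. berlandieri × V. rupestris rootstock known as a Cl- excluder. Roots were kept for 4 days in nutrient solution alone (control) or in the same solution with 50 mM Cl- given as Na, Ca and Mg salts (salt), with 4 control and 4 salt arrays each for CS and K51-40 and 3 and 3 for 140R. The probes were designed on V. vinifera transcripts, so between varieties a different transcript level and a different match to the probe cannot be told apart, and in whole roots fewer cells that express a gene cannot be told apart from less RNA per cell.

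Signals are the deposited processed values on a log2 scale, where a step of 1 is a doubling. All 6 probes were marked well above background on all 22 arrays, with a signal between 2.57 and 58.1 times background for PYL1 and between 25.7 and 431 times for the SnRK2 probes. Across arrays the median spot lay 4 to 14.84 times above background, and 7 arrays of CS and K51-40 were scanned on a second date. The scanner file labelled CS control replicate 3 did not match its own processed column (r of 0.93 across spots, at least 0.992 for the other 21 arrays). It came closest to the processed column of K51-40 control replicate 1 (r of 0.9893). Its scanner values had an r of 0.9721 to 0.99 with the K51-40 arrays and 0.9105 to 0.9275 with the other CS arrays. In that file the quantile normalised log2 signal of PYL1 probe A was 6.98, against 10.1 to 10.5 on the other CS control arrays and 6.69 to 7.06 on the K51-40 control arrays. The processed column of the same array read 10.15. Processed values are used here, and values without that array are given below for the salt change of PYL1 in CS and for the control differences from CS. The root marker TIP2;3, an aquaporin, was well above background on all arrays, and so were 7 of 8 probes for the leaf genes LHCA3, LHCB6, PSAF and Rubisco activase 2. Of these 10 marker probes, by the call defined below, 4 were called between 140R and K51-40 with salt (up to -1.33 on the log2 scale), 5 between 140R and CS (up to -1.97) and 6 between K51-40 and CS (up to 1.80), and their part in the differences between varieties was not tested.

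PYL1 separated the 3 varieties completely, in the order CS, 140R, K51-40. In control roots probe A read 10.20, 10.25, 10.15 and 10.26 in CS. It read 8.18, 8.43 and 8.24 in 140R and 7.03, 6.68, 6.91 and 6.84 in K51-40. No array of one variety came within the range of another. With salt, probe A read 9.75, 9.54, 9.70 and 9.75 in CS. The 3 salt arrays of 140R read 7.97, 8.01 and 8.29, and the 4 of K51-40 read 6.60, 6.57, 6.72 and 6.87. The order of the varieties was the same as in control roots, again without overlap. Probe B ran from 9.99 to 10.07 in CS control roots, from 8.19 to 8.35 in 140R and from 6.82 to 7.15 in K51-40. Its salt arrays ran from 9.498 to 9.559 in CS, from 7.84 to 8.12 in 140R and from 6.57 to 7.25 in K51-40. Down the 6 groups both probes gave the order CS control, CS salt, 140R control, 140R salt, K51-40 control, K51-40 salt. The arrays of adjacent groups overlapped only between control and salt of 140R for probe A and between control and salt of K51-40 for both probes.

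**Figure D1:**
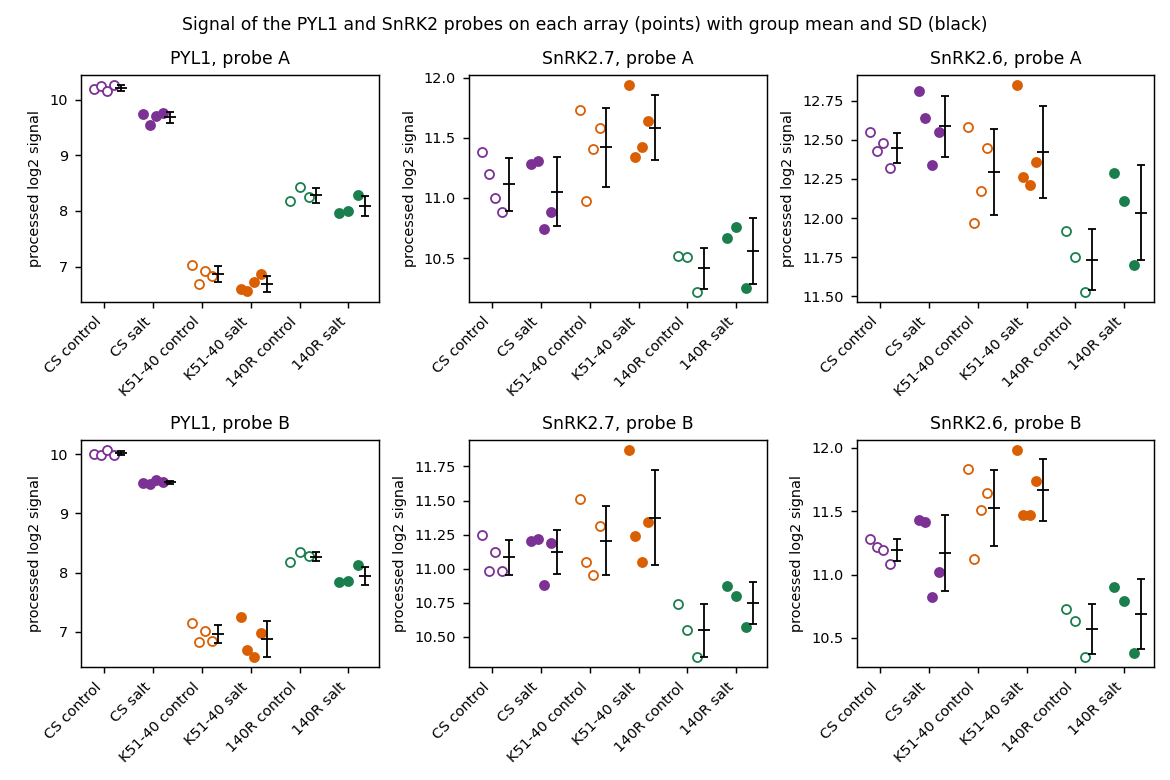
Processed log2 signal (y axis) of both probes of PYL1, SnRK2.7 and SnRK2.6 on each array in the 6 groups of variety and treatment (x axis). Open points are control arrays, filled points are salt arrays, and the black marks give the mean and SD of each group (n = 4 for CS and K51-40, n = 3 for 140R). The 3 varieties form separate levels for PYL1, while 140R lies lowest for the SnRK2 probes.

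The study chose probe A of each gene for its difference between 140R and K51-40 in control roots, so the difference on those arrays is a description and carries no test. PYL1 was higher in 140R than in K51-40 by 1.415 (probe A) and 1.31 (probe B) on the log2 scale, where 20.5% of all probes passed the call used below and 35.9% had arrays without overlap. The salt-treated arrays are other samples and allow a test of the same pair of varieties. That test is not fully independent of the choice, since the control arrays enter its estimate of the spread. Same-numbered control and salt arrays of the rootstocks also varied together, as given in the processing section. A value is called when its adjusted p from limma, with Benjamini-Hochberg adjustment over all probes, is at most 0.05 and its log2 difference is at least 0.5 in size.

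In salt-treated roots PYL1 was 2.64-fold higher in 140R than in K51-40 by probe A (log2 difference 1.40, SE 0.102, adjusted p = 2.11e-09 in limma). Probe B gave 2.09-fold (log2 difference 1.06, SE 0.122, adjusted p = 7.8e-07). Probe B was not called from scanner values without batch correction (1.27, adjusted p = 0.0628) or after normexp (1.03, adjusted p = 0.0537), both with the mismatched array. Both probes were called, in a comparison where 21.2% of all probes were called. The 3 arrays of 140R lay above all 4 of K51-40 for both probes, as 2 groups did without overlap for 35.5% of all probes. Scanned on the first date alone, the 2 K51-40 salt arrays differed from the 140R arrays by 1.51 and 0.964 for probes A and B.

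PYL1 was highest in CS. With salt it was lower in 140R than in CS by 3.02-fold (log2 difference -1.60, SE 0.102, adjusted p = 4.64e-11 in limma, probe A) and by 3.01-fold (-1.59, SE 0.122, adjusted p = 8.19e-10, probe B). It was lower in K51-40 than in CS by 7.99-fold (-3.00, SE 0.0943, adjusted p = 3.44e-16, probe A) and by 6.28-fold (-2.65, SE 0.113, adjusted p = 2.46e-14, probe B). These comparisons called 27.5% and 33.6% of all probes, and 44.4% and 46.6% had arrays without overlap. Within each scan date the K51-40 minus CS difference was between -3.06 and -2.53. In control roots, on arrays that the rootstock list had used in part and as a description, 140R lay below CS by 3.82-fold and 3.35-fold and K51-40 below CS by 10.2-fold and 8.32-fold for probes A and B. In these comparisons 30.0% and 32.5% of all probes were called, and 47.6% and 46.7% had no overlap. Without CS control replicate 3 the log2 differences were -1.96 and -1.73 for 140R and -3.37 and -3.04 for K51-40. From the scanner files with the mismatched array, the 140R minus CS differences were smaller, -1.16 and -1.06 with ComBat, -1.10 and -0.924 without batch correction, -1.05 and -0.989 with 75th percentile scaling and -1.14 and -1.02 with normexp. With that array omitted they were -1.96 and -1.79.

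The salt treatment lowered PYL1 in CS. Probe A fell by 0.53 on the log2 scale (SE 0.0943, adjusted p = 0.00527 in limma), 1.44-fold, from 10.22 ± 0.0504 to 9.69 ± 0.0983 (SD, n = 4 each). Probe B had a log2 change of -0.49 (SE 0.113, adjusted p = 0.0358), which passed the limit on p but not the minimum of 0.5. For both probes all 4 salt arrays lay below all 4 control arrays, as happened in one direction or the other for 9.04% of all probes, while 0.798% were called. Both scan dates gave like values, -0.555 and -0.536 for probe A and -0.514 and -0.447 for probe B. The first date held 2 salt and 3 control arrays, control replicate 3 among them, and the second 2 salt arrays and 1 control array. Probe A is also on the study's list of salt-responsive probes for CS, chosen on these arrays, so its count is not independent of that choice. Without CS salt replicate 2 the change was -0.48 (adjusted p = 0.0285), below the minimum. Computed from the scanner files instead, with the mismatched array kept, the sign turned (0.05 and 0.11 for probes A and B, adjusted p = 0.978 and 0.938). With that array omitted the scanner values gave -0.604 (adjusted p = 0.00683) and -0.495 (adjusted p = 0.0469).

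In the rootstocks no salt change of PYL1 was called. In K51-40 the log2 change was -0.18 (95% interval -0.375 to 0.02) for probe A and -0.08 (-0.319 to 0.151) for probe B, in a comparison that called 2.10% of all probes. In 140R the changes were -0.19 (-0.417 to 0.04) and -0.33 (-0.603 to -0.06), with adjusted p = 0.686 and 0.493 in limma, and 0.0343% of all probes were called, 18 probes (82 with the replicate number as a block). The 6 salt changes of PYL1, over both probes and the 3 varieties, were therefore all below 0 and 1 of them was called. The salt response of CS did not differ past the threshold from that of K51-40 (difference of K51-40 minus CS 0.35, 95% interval 0.07 to 0.629, adjusted p = 0.252 in limma, probe A). For probe B the difference was 0.40 (0.07 to 0.736, adjusted p = 0.273). Against 140R the difference from CS was 0.34 (0.04 to 0.639) for probe A and 0.16 (-0.202 to 0.515) for probe B.

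**Figure D2:**
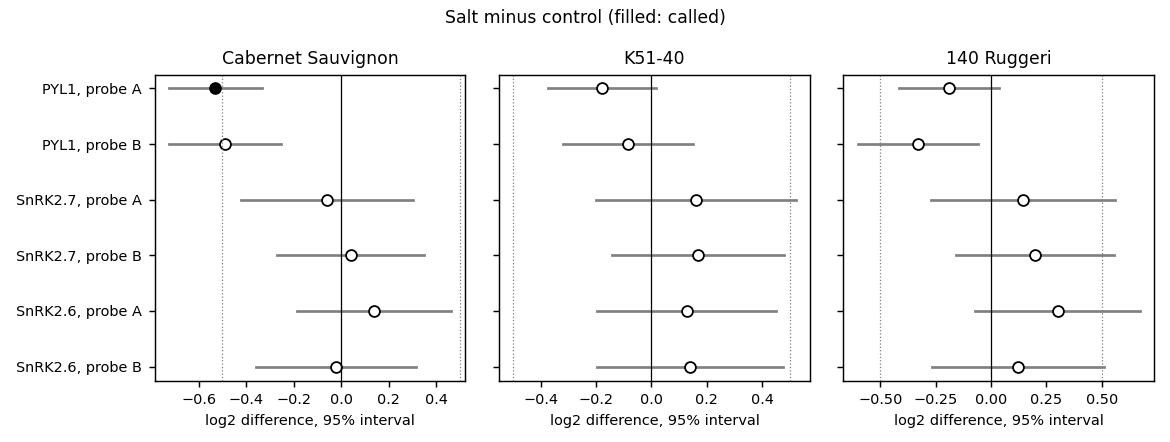
Log2 change with salt (x axis, salt minus control) of the 6 probes (y axis) in Cabernet Sauvignon, K51-40 and 140 Ruggeri. Points are limma estimates with 95% intervals, filled where called, and dotted lines mark the minimum of 0.5 in either direction. PYL1 probe A in Cabernet Sauvignon, at -0.53, is the filled point.

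SnRK2.7, a kinase of the SnRK2 family, was lowest in 140R, and none of its salt changes was called. In salt-treated roots probe A read 11.94, 11.34, 11.42 and 11.64 in K51-40. It read 11.28, 11.31, 10.74 and 10.88 in CS and 10.67, 10.76 and 10.25 in 140R. The 140R arrays lay below every K51-40 array, as 35.5% of all probes did without overlap in either direction, but overlapped with CS. In control roots probe A read 11.73, 10.97, 11.41 and 11.58 in K51-40. It ran from 10.88 to 11.38 in CS and read 10.52, 10.51 and 10.22 in 140R. Here 140R lay below both other varieties, which overlapped with each other. Of all probes, 35.9% had no overlap between control arrays of 140R and K51-40, and 47.6% between those of 140R and CS. Probe B had its lowest arrays in 140R as well, from 10.35 to 10.74 in control and from 10.57 to 10.87 in salt-treated roots. Its other 16 arrays ran from 10.88 to 11.87.

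With salt, SnRK2.7 was lower in 140R than in K51-40 by 2.03-fold for probe A (log2 difference -1.02, SE 0.187, adjusted p = 0.000192 in limma). Probe B gave 1.54-fold (-0.63, SE 0.161, adjusted p = 0.00426), and without K51-40 salt replicate 1 it fell below the minimum (-0.46, adjusted p = 0.0174). The descriptive differences in control roots were -1.01 and -0.66. Against CS with salt, 140R differed by -0.49 for probe A (95% interval -0.883 to -0.104, adjusted p = 0.039) and by -0.38 for probe B (-0.712 to -0.04, adjusted p = 0.0673), neither called. Probe A was called in 9 of 11 alternative settings, at -0.809 to -0.508, among them the replicate number as a block (-0.509, adjusted p = 0.0115), and probe B in 3 of 11. In control roots 140R lay below CS by 1.62-fold and 1.45-fold for probes A and B, a description, since the rootstock list had used the same 140R arrays. Without CS control replicate 3 the log2 differences were -0.735 and -0.524. Among salt arrays of the first scan date alone, 140R minus K51-40 was -1.08 and -0.803 for probes A and B. On that date 140R minus CS was -0.735 and -0.462. With salt, K51-40 exceeded CS by 0.53 for probe A (SE 0.173, adjusted p = 0.0135), called, and by 0.25 for probe B (95% interval -0.06 to 0.561). The call of probe A was lost without K51-40 salt replicate 1 (0.41), without CS salt replicate 3 (0.43) or without CS salt replicate 4 (0.47). Within the scan dates it was 0.343 and 0.718.

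SnRK2.6, the kinase that acts in ABA-driven stomatal closure in Arabidopsis, was also lowest in 140R, but its probes did not rank the other varieties alike. In salt-treated roots probe A read 12.85, 12.26, 12.21 and 12.36 in K51-40. It read 12.81, 12.64, 12.34 and 12.55 in CS and 12.29, 12.11 and 11.70 in 140R. The 140R arrays lay below CS, a pair without overlap for 44.4% of all probes, and overlapped with K51-40. Probe B read 11.98, 11.47, 11.47 and 11.74 in K51-40 with salt. It read 11.43, 11.41, 10.82 and 11.02 in CS and 10.90, 10.79 and 10.38 in 140R. By this probe 140R lay below K51-40, a pair without overlap for 35.5% of all probes, and overlapped with CS. In control roots probe A was 12.29 ± 0.274 in K51-40 and 12.45 ± 0.0982 in CS (SD, n = 4 each), and 11.73 ± 0.194 in 140R (SD, n = 3).

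The difference between 140R and K51-40 for which SnRK2.6 had been listed did not pass the threshold in salt-treated roots for the listed probe. Probe A gave -0.39 (SE 0.168, 95% interval -0.735 to -0.04, adjusted p = 0.0822 in limma), against -0.56 on the control arrays. Without 140R salt replicate 1 it was -0.52 (adjusted p = 0.0404) and called, and so it was from the scanner files (-0.53, adjusted p = 0.0133) and with slide as a term (-0.57, adjusted p = 0.00782). Probe B was called, 1.96-fold lower in 140R (-0.97, SE 0.175, adjusted p = 0.000163), with -0.95 on the control arrays. Against CS with salt, probe A was 1.46-fold lower in 140R (-0.55, SE 0.168, adjusted p = 0.011), called, and without CS salt replicate 1 or 140R salt replicate 3 it was -0.48 or -0.39 and not called. Probe B gave -0.48 (95% interval -0.842 to -0.116, adjusted p = 0.0318), below the minimum. Probe B was called there in 7 of 11 alternative settings, at -0.779 to -0.53. Among salt arrays of the first scan date alone, 140R minus K51-40 was -0.52 and -1.03 for probes A and B. On that date 140R minus CS was -0.692 and -0.729. In control roots 140R lay below CS by 1.64-fold and 1.54-fold for probes A and B, again a description on 140R arrays that the list had used. Without CS control replicate 3 the log2 differences were -0.699 and -0.622. K51-40 and CS with salt differed by -0.16 for probe A (95% interval -0.488 to 0.158) and by 0.49 for probe B (0.155 to 0.827, adjusted p = 0.0142), neither called. Of all 12 SnRK2 values between varieties with salt, 5 were called. These were 3 of 4 for 140R minus K51-40, 1 of 4 for 140R minus CS and 1 of 4 for K51-40 minus CS, where 21.2%, 27.5% and 33.6% of all probes were called. SnRK2.7 probe A and SnRK2.6 probe B, both called for 140R minus K51-40, had an r of 0.99 over the arrays. They are not independent values.

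The 2 probes of SnRK2.6 were compared within each array by the log2 signal of A minus that of B. With salt this ran from 0.619 to 0.874 in K51-40, from 1.23 to 1.52 in CS and from 1.31 to 1.39 in 140R. Every K51-40 array lay below every array of the other varieties. The K51-40 minus CS difference was -0.66, with p = 0.0286 in a two-sided exact permutation test, the smallest that 4 against 4 arrays allow, and adjusted p = 0.0858 over the 9 comparisons of this kind. The 140R minus K51-40 difference of SnRK2.6 was 0.584 (exact permutation p = 0.0286, adjusted p = 0.0858). For SnRK2.7 the 140R minus K51-40 difference was -0.40 (exact permutation p = 0.0286, adjusted p = 0.0858), with the 140R arrays all below 0 and the K51-40 arrays all above. For PYL1 no pair of varieties went below an exact permutation p of 0.0857. None of the 9 comparisons passed 0.05 after adjustment, but 0.0286 is the smallest p that these arrays allow in any of them. A comparison at that value could pass only if most of the 9 reached it. The adjusted p therefore cannot decide whether the probes differ.

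**Figure D3:**
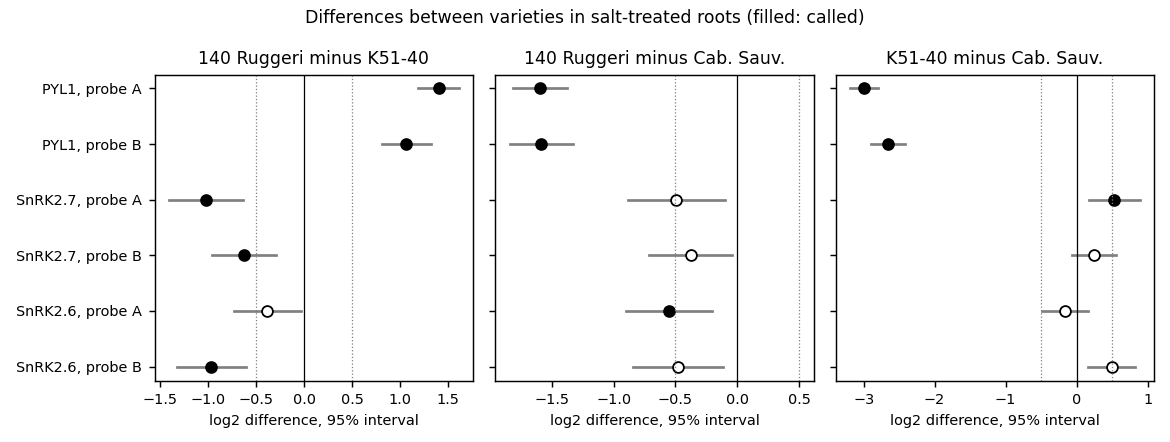
Log2 differences between varieties in salt-treated roots (x axis) for the 6 probes (y axis), with limma estimates, 95% intervals and filled points where called. The panels have different scales. PYL1 is called in all 3 pairs of varieties, and the SnRK2 probes lie below 0 in both comparisons of 140 Ruggeri.

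No salt change of either SnRK2 gene was called. The 12 changes, over 4 probes and 3 varieties, lay between -0.06 and 0.30 on the log2 scale, 2 of them below 0 and 10 above. None had an unadjusted p below 0.05, and the lowest adjusted p was 0.678 in limma. The highest value was that of SnRK2.6 probe A in 140R, where the control arrays read 11.92, 11.75 and 11.53 and the salt arrays 12.29, 12.11 and 11.70 (change 0.30, 95% interval -0.07 to 0.674). The groups overlapped. Over all 12 changes the 95% intervals reached from -0.421 to 0.674, so changes of that size lie within the error. The salt responses of 2 varieties did not differ past the threshold for any of the 6 probes, with 0 of 18 values called in limma. An unadjusted p below 0.05 was seen in 3 of the 18, all for PYL1. Of all probes, 0.112%, 0.00953% and 0.673% were called for 140R against K51-40, 140R against CS and K51-40 against CS.

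The SnRK2 probes did not vary independently of each other. Over the 22 arrays, probe A of SnRK2.7 and probe B of SnRK2.6 had a Pearson r of 0.99. This was higher than the r of probe A with probe B of SnRK2.7 (0.913) or of SnRK2.6 (0.771). The r of deviations from the group means, which leaves out the differences between varieties, was 0.958 for the pair across genes, 0.774 for the pair of SnRK2.7 and 0.934 for that of SnRK2.6. In the log2 scanner intensities the pair across genes had an r of 0.996. These 2 probes carried nearly the same pattern of arrays, and whether both bind transcripts of 1 gene was not tested. For PYL1, probes A and B had an r of 0.993 over the arrays and 0.414 within groups. PYL1 had an r with the SnRK2 probes between -0.357 and 0.206 for probe A and between -0.315 and 0.248 for probe B. Within groups it was -0.154 to 0.00485 for probe A and 0.323 to 0.489 for probe B, and in the scanner intensities 0.288 to 0.599 and 0.27 to 0.596. These r values are descriptions over arrays that share varieties and normalisation.

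**Figure D4:**
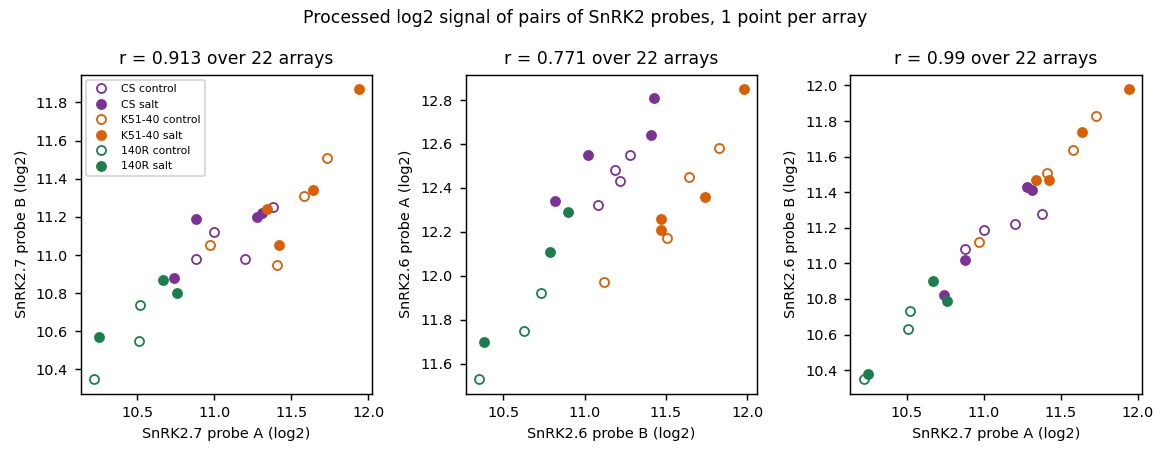
Processed log2 signal of pairs of SnRK2 probes, with 1 point per array coloured by variety, open for control and filled for salt. The panels show probes A and B of SnRK2.7 (r = 0.913), probes B and A of SnRK2.6 (r = 0.771), and probe A of SnRK2.7 against probe B of SnRK2.6 (r = 0.99), where the points follow a line most closely.

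Among 42001 probes of other genes that were well above background on all arrays of at least 1 group, the search for the most similar pattern to SnRK2.7 probe A returned the other kinase first. GSVIVT01002389001 (SnRK2.6) had an r of 0.99 through its probe B, followed by GSVIVT01031200001 (VIT_14s0060g01550, annotated as Dehydration-induced 19) with 0.953 and GSVIVT01008063001 with 0.953. Only 70 probes exceeded an r of 0.9. For SnRK2.6 probe A the closest were GSVIVT01020484001 (0.919), GSVIVT01036060001 (0.908) and GSVIVT01013447001 (0.905), and 4 probes exceeded 0.9. For PYL1 probe A they were GSVIVT01012072001 (0.993), GSVIVT01030031001 (0.989) and GSVIVT01037491001 (0.988). Here 2286 probes exceeded 0.9, and within groups the r of the 3 genes with PYL1 was 0.457, -0.722 and 0.383.

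Other genes of ABA signalling and metabolism were taken from the study's lists, which were chosen on these arrays, so their counts are not independent evidence of direction. Of 7 such genes, 4 had a probe called higher in 140R than in K51-40 with salt and 0 lower, where 15.6% and 15.3% of all genes were called. The median log2 difference over their probes was 0.258, against -0.02 over all probes. In control roots 2 of the 7 were higher and 2 lower by the same call, as a description. There 20.5% of all probes were called, 49.2% of them higher, and the share of genes was not computed. AHG1 (VIT_16s0022g02210), a protein phosphatase 2C that restrains ABA responses in Arabidopsis seeds, was higher by 0.905 and 0.788 on its 2 probes (adjusted p = 0.000234 and 5.57e-05 in limma). Zeaxanthin epoxidase (VIT_07s0031g00620) and a 9-cis-epoxycarotenoid dioxygenase (VIT_02s0087g00910), enzymes of ABA synthesis, were higher by 0.666 (adjusted p = 2.7e-05) and 0.618 (adjusted p = 0.00736) on 1 probe each. An ABA glucosidase (VIT_17s0000g02680), of the kind that releases ABA from its glucose ester, was higher by 0.604 (adjusted p = 0.0027) on 1 probe.

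With salt in CS, 2 of these 7 genes were called, 1 in each direction, where 0.724% of all genes were called higher and 0.373% lower. The GCR2-like gene VIT_00s0710g00010, whose locus name is the neighbour of that of SnRK2.6, was lower by 0.58 on 1 probe (log2 change -0.58, SE 0.134, adjusted p = 0.0365 in limma). The ABA glucosidase VIT_06s0004g01430 rose by 0.555 (SE 0.132, adjusted p = 0.0431) on 1 probe. It also rose in K51-40, by 0.657 and 0.563 on its 2 probes (adjusted p = 0.0269 and 0.0211), where 1.30% of all genes were called higher and 1.62% lower. There VIT_17s0000g02680 had a change of -0.52 (adjusted p = 0.0406). In 140R none of the 7 was called with salt, where 0.0457% of all genes were called higher and 0.00381% lower.

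Among 15 genes annotated as ABA-responsive, 5 rose with salt in K51-40, 0 in CS and 0 in 140R, where 1.30%, 0.724% and 0.0457% of all genes were called higher. The median log2 change over their 30 probes was nevertheless below 0 in K51-40 (-0.392, against 0.00649 over all probes). The 15 genes also come from the study's lists, chosen on these arrays, so the counts are not independent of that choice. The 5 that rose encode GRAM domain proteins, and their called probes rose by at least 1.07, the most in VIT_10s0071g00390 (adjusted p = 0.000604 in limma). The difference between the salt responses of K51-40 and CS was called for none of the 15. These 5 genes and VIT_03s0091g00930 were also the 6 called lower in 140R than in K51-40 with salt, while 3 genes for RD22, a dehydration-responsive protein, were called higher, by up to 5.50 (VIT_04s0008g04020, adjusted p = 1.26e-10). Of all genes, 15.3% were called lower and 15.6% higher in that comparison. Beside these changes, the root marker TIP2;3 rose with salt in K51-40 by 1.96 and 1.94 (adjusted p = 2.99e-06 for both probes), and its part in them was not tested.

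Of 9 calcium-linked protein kinases, 6 were called higher and 1 lower in 140R than in K51-40 with salt, where 15.6% and 15.3% of all genes were called, with a median log2 difference of 0.584 over their probes. In control roots 6 were higher and 2 lower by the same call, as a description, where 20.5% of all probes were called. The study lists calcium-dependent kinases, CPK20 among them, for differences between these rootstocks in control roots. The counts are therefore not independent of that choice. CPK20 (VIT_08s0032g00780), a calcium-dependent protein kinase, was higher by 1.04 and 0.972 on its 2 probes (adjusted p = 5.53e-05 and 6.96e-05 in limma). CIPK23 (VIT_11s0065g00950), which acts on ion transporters in Arabidopsis roots, was higher by 0.635 and 0.783 (adjusted p = 0.0031 and 0.000134). None of the 9 was called with salt in any variety. Of 5 genes for slow anion channels, the family that SnRK2.6 acts on in Arabidopsis, SLAH3 (VIT_16s0050g01860) was called, on 1 of its 2 probes, higher in 140R than in K51-40 with salt by 0.684 (SE 0.238, adjusted p = 0.0298). That is 1 of 5 genes, where 15.6% of all genes were called higher. In control roots the same probe gave 0.542 (adjusted p = 0.0876 in limma), and 0 of the 5 genes were called. The study lists SLAH3 for the rootstocks on these control arrays. It printed a subset of probes for putative anion transporters repeatedly and describes such repeats as raising the log-odds of a difference. Here repeated spots of a probe were averaged before the fit. The adjusted p is therefore of another kind and cannot decide whether the study's listing holds. None of the 5 slow anion channel genes was called with salt in any variety.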

How the data were processed

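Root RNA of 22 samples was labelled with 1 dye and hybridised to custom Agilent arrays. The authors deposited scanner intensity values per spot (Agilent Feature Extraction 10.7.3 per the submitters' processing notes) and a table of processed log2 values, made by log2 transformation of the median signal, quantile normalisation and ComBat correction for hybridisation date. The log2 column medians lay between 7.53 and 7.55. The processed values are the main values here. Spots of 1 probe were averaged, giving 52478 probes for 26241 genes.

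The groups are the labelled varieties in each treatment. One mean per group was fitted to all 22 arrays with limma 3.58.1 in R 4.3.3, and p was adjusted with the Benjamini-Hochberg method over all probes. A gene in a list counted as called when at least 1 probe was called. Intervals are 95% intervals of the limma estimate. Differences between probes were tested by exact two-sided permutation of arrays. The named genes were both probes of the 3 genes, list genes called in the comparison described, and the 3 genes with the highest r to each probe A. The genes, lists, rules and alternatives were chosen with earlier results of these data known.

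Replicate numbers are shared by control and salt arrays in the labels. Residuals of same-numbered arrays had an r of 0.309 to 0.427 in the 4 pairs of K51-40 and 0.242 to 0.346 in the 3 pairs of 140R, but -0.352 to 0.373 in CS. In CS the value of -0.352 was that of replicate 3, and the other pairs had 0.125, 0.216 and 0.373. The data, and not the labels, gave grounds to pair arrays by number in the rootstocks only. The alternative with the replicate number as a block nevertheless used the numbers in all varieties, CS included. For salt changes the block was the number within a variety. For differences between varieties it was the number alone, and whether equal numbers of different varieties belong together was not tested. The main fit did not use the pairs. Alternatives were scanner intensities with or without ComBat, 75th percentile scaling, normexp with an offset of 50, scan date or slide as a term, slide as a random block, fewer arrays or probes, the replicate number as a block, and each array left out. Normexp on the median signal, the omission of the mismatched scanner file and the random slide block were added after seeing the data. The fit was tested on simulated data with known changes. The number of arrays limits the precision.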

Additional observations from a re-analysis of the deposited data

Results flagged for a closer look

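Of 24 sets of 4 arrays (6 probes in the CS and K51-40 groups), 1 had an array far from the others, and chance gives about 1 in 20. SnRK2.7 probe B read 10.88 in CS salt replicate 3, against 11.19 to 11.22 in the other 3 salt arrays of CS. The gap to the nearest array was 0.921 of the range, above the Dixon limit for 4 values.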

How the results depend on the processing

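The order CS, 140R, K51-40 of PYL1 had the same sign under every alternative run. Its salt change in CS turned sign in the 4 settings that start from scanner files with the mismatched array: for probes A and B it was 0.0464 and 0.106 with ComBat, 0.212 and 0.159 without batch correction, 0.326 and 0.288 with 75th percentile scaling and 0.00914 and 0.0443 with normexp, with 0 PYL1 salt values called in each. The first 3 of these settings also called 2 of the 4 PYL1 values between varieties without salt. Probe B in 140R minus K51-40 with salt was not called without batch correction (1.27) or with normexp (1.03). The planned normexp on the mean signal was not run, because the files used hold the median signal. The cause of the other changes was not tested. For the SnRK2 probes with salt, 8 of 12 values were called with scanner ComBat, 8 with normexp, 8 with the mismatched array omitted and 9 with slide as a term, against 5. The 140R minus CS difference of SnRK2.7 probe A was called in these settings and in others, at -0.704 with scanner ComBat, -0.809 without batch correction, -0.714 with 75th percentile scaling, -0.689 with normexp, -0.698 with that array omitted, -0.585 with scan date, -0.546 with slide and -0.508 with the random slide block. SnRK2.6 probe B was called there at -0.673, -0.779, -0.678, -0.659, -0.667, -0.564 and -0.53 under all but the last of these in the same order, and SnRK2.7 probe B at -0.55 with scanner ComBat, -0.544 with normexp and -0.533 with the array omitted. SnRK2.6 probe A was not called there with 75th percentile scaling (-0.526). In 140R minus K51-40, SnRK2.6 probe A was called at -0.531, -0.528, -0.536 and -0.574 with scanner ComBat, normexp, the array omitted and slide, and SnRK2.7 probe B was lost without batch correction (-0.592) and with 75th percentile scaling (-0.577). In K51-40 minus CS, SnRK2.7 probe A lost its call at 0.477, 0.456, 0.472 and 0.469 with scanner ComBat, no batch correction, normexp and the array omitted, and SnRK2.6 probe B gained one at 0.501, 0.663 and 0.54 with 75th percentile scaling, slide and the random slide block. In control roots SnRK2.7 probe B turned from 0.12 to -0.0353 without batch correction.

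Leaving out 1 array at a time moved PYL1 probe A with salt in CS between -0.552 and -0.482 (0 to 1 PYL1 salt values called) and probe B in K51-40 between -0.21 and 0.016. SnRK2 values with salt kept between 3 and 7 calls. Their ranges were -0.68 to -0.385 for SnRK2.6 probe A, -0.597 to -0.324 for SnRK2.6 probe B and -0.598 to -0.338 for SnRK2.7 probe A in 140R minus CS, -0.515 to -0.22 for SnRK2.6 probe A and -0.734 to -0.463 for SnRK2.7 probe B in 140R minus K51-40, and 0.373 to 0.578 for SnRK2.6 probe B and 0.414 to 0.618 for SnRK2.7 probe A in K51-40 minus CS. The replicate number as a block changed 1 call of these genes, SnRK2.7 probe A in 140R minus CS with salt (-0.509).

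Counts over the whole array moved more. With salt in CS, 419 probes were called, and 824 with the replicate block, 206 with scanner ComBat, 71 without batch correction, 72 with 75th percentile scaling, 199 with normexp, 85 at a log2 change of at least 1 and 261 to 478 with 1 array left out. In K51-40, 1102 became 541, 142, 110 and 438 in those 4 scanner settings, 377 with only the arrays compared, 187 at a change of at least 1 and 644 to 1338 with 1 array left out. In 140R, 18 became 82 with the replicate block, 7 without batch correction, 2 with 75th percentile scaling, 136 with the array omitted, 46 with scan date, 45 with slide, 34 with the random slide block, 0 with only the arrays compared (4389 probes had an unadjusted p below 0.05 in the fit to all arrays), 6 at a change of at least 1 and 6 to 37 with 1 array left out. The difference of salt responses of 140R and K51-40 called 59 probes, and 330 with the replicate block, 28, 0, 0 and 29 in the scanner settings, 239 with the array omitted, 109 with scan date, 173 with slide, 117 with the random slide block, 1 with only the arrays compared and 1 to 83 with 1 array left out. For K51-40 and CS it called 353, and 1325 with the replicate block, 62, 13, 13 and 67 in the scanner settings, 188 at a change of at least 1 and 194 to 469 with 1 array left out. For 140R and CS it called 5, and 3 without batch correction and 9 with the array omitted. A change of at least 1 called 3551, 5670 and 7322 probes with salt (140R against K51-40, 140R against CS, K51-40 against CS) and 3348, 6420 and 7235 without. In that last pair 10462, 11310 and 11077 probes were called without batch correction, with 75th percentile scaling and with normexp, against 17057. The 75th percentile scaling put the median of all probes at -0.142, 0.135 and 0.207 in the 3 pairs with salt and at 0.167 in 140R minus CS without salt, against -0.02, 0.03, 0.05 and 0.04, and raised the higher share of calls in K51-40 minus CS with salt from 50.8% to 61.2%. The number of arrays and, for PYL1 in K51-40, a signal down to 2.57 times background limit the precision.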
